A study of Mus musculus with 8 samples.

Results

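The 38 genes described here encode the integrin subunits (17 alpha and 8 beta), the laminin chains (11) and the nidogens *Nid1* and *Nid2* among the 22873 genes that were counted in single nuclei of the mouse iris. They were taken by gene symbol, with antisense transcripts left out. All 38 had at least 1 transcript in every library. Their levels were compared across 10 cell types and across untreated, constricted and dilated irises.

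Laminins are secreted trimers of an alpha, a beta and a gamma chain that build the basement membrane, and nidogens tie the laminin network to type IV collagen. Integrins are surface receptors, each an alpha and a beta subunit, that bind laminins, collagens, fibronectin and related RGD proteins, or other cells, and couple them through talin and vinculin to the actin cytoskeleton. In smooth muscle these receptors hold contractile cells to their matrix. The dilator is a muscle made of modified cells of the iris epithelium and lies on a basement membrane, while the iris stroma holds pigment cells, fibroblast-like cells and vessels.

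Nuclei were profiled by single nucleus RNA-seq in 8 libraries, each from 5 or 6 pooled irises with some ciliary body attached, of female albino mice aged 6 to 8 weeks. The 2 dilated libraries came from mice given hourly eye drops of 5% phenylephrine, an alpha-adrenergic agonist, and 1% cyclopentolate, a muscarinic antagonist, for 6 hours in the dark. The 3 constricted libraries came from mice given 5% pilocarpine, a muscarinic agonist, each hour for 6 hours in the light, and eyes were taken 30 minutes after the last dose in both. The 3 untreated libraries had no drops. Drug, pupil size and lighting changed together and cannot be told apart. The authors assigned the cell types, which are the dilator muscle, sphincter 1 and 2, the iris pigment epithelium (iris PE), the ciliary body epithelium (CBE), other ciliary body cells (CB), stroma 1 and 2, leukocytes and endothelial cells (EC).

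The libraries held 5189437 to 25136427 unique molecular identifiers (UMIs, one per captured transcript) in 34357 nuclei, with a median of 2775 to 4697.5 UMIs per nucleus. UMIs were summed per cell type and library and are given as CPM, UMIs per 1000000 UMIs of that sum, as mean ± SD over libraries. Reads from introns were counted, so long genes collect more UMIs, and a nuclear level cannot separate fewer cells of a kind within a cluster from less RNA per cell. Nuclei numbered 11606 in dilator muscle but 387 in leukocytes and 273 in EC, so weakly expressed members rest on a few UMIs in these clusters. Untreated replicate 1 and dilated replicate 1 shared 63 cell barcodes, which is 4.26% of the nuclei of untreated replicate 1, and 59 of these carried the same cell type in both. Without all nuclei whose barcode occurred in more than 1 library, 12 of the 13 changes with dilation described below still passed the test, and *Itgb5* in leukocytes did not. In untreated nuclei, the summed markers of sphincter 1, iris PE, stroma 1, stroma 2, leukocytes and EC were each highest in the cluster of that name. Those of dilator muscle (3177 to 3360 CPM in the cluster) were higher in sphincter 1 (3860 to 4844 CPM) and sphincter 2 (4135 to 4586 CPM), and those of sphincter 2 (5112 to 6178 CPM) were higher in sphincter 1 (10977 to 12139 CPM), so these lists did not single out their clusters. The smooth muscle genes *Myh11* (50.1 CPM), *Acta2* (52.1 CPM), *Des* (2.75 CPM) and *Cnn1* (2.28 CPM) were at low levels in untreated CB nuclei, and the bicarbonate transporter gene *Slc4a4*, taken here as a CBE marker, reached 6338 CPM in CB and 70.0 CPM in CBE, so CB and CBE are used as labels only.

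Sequences upstream of 4 members are shown because these genes changed together in dilator muscle, *Itga5*, *Itgb1* and *Itgb8* upward and *Lamb1* downward, under every alternative tried. Each is the 250 bases before the annotated start site, 5′ to 3′ on the gene's strand, from RefSeq on GRCm38.p6. Capitals mark matches, on either strand, to the SP1 motif GGGCGG, the TEAD motif GGAATG, the EGR motif GCGNGGGCG, the AP-1 motif TGANTCA, the CRE motif TGACGTCA or the CArG box.
Itga5, chr15:103366792-103367041, minus strand: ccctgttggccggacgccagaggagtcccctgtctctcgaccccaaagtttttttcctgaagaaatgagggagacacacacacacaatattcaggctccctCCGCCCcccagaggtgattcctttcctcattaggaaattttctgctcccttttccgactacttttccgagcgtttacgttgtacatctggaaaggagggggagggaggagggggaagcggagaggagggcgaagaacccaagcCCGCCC
Itgb1, chr8:128685404-128685653, plus strand: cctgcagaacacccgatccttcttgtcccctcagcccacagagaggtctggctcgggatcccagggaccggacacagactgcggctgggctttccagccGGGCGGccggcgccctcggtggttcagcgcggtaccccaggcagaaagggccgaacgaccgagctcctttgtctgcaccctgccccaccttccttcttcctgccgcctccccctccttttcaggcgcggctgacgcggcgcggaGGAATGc
Itgb8, chr12:119238277-119238526, minus strand: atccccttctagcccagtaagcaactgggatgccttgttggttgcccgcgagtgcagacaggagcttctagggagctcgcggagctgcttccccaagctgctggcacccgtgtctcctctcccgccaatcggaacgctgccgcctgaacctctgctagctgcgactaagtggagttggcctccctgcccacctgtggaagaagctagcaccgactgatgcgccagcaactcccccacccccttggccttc
Lamb1, chr12:31265043-31265292, plus strand: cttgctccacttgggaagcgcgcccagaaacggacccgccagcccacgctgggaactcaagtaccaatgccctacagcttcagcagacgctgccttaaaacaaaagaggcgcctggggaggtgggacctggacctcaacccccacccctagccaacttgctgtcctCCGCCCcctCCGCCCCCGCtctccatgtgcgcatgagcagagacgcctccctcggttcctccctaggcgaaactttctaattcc

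The *Itga5* sequence held 2 SP1 matches, the *Itgb1* sequence 1 SP1 and 1 TEAD match and the *Lamb1* sequence 2 SP1 matches and 1 EGR match, where the second SP1 match and the EGR match overlap. No letters of these motifs occurred in the *Itgb8* window. RefSeq gave 26 such windows for 23 of the 38 members, and the SP1 motif stood in 9 of them (34.6%), against 32.7% of 32851 mouse promoters. The TEAD motif stood in 4 of the 26 (15.4%) against 12.6%, the EGR motif in 2 (7.69%) against 4.70%, the CArG box in 2 (7.69%) against 1.47%, the AP-1 motif in 1 (3.85%) against 6.75%, and the CRE motif in 0 against 1.55%. These matches describe the letters only.

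In untreated irises the laminin alpha chains divided the tissue. *Lama2*, the chain of muscle and nerve basement membranes, was highest in stroma 2 (1022 ± 80.5 CPM, n = 3), followed by dilator muscle (573.9 ± 42.4 CPM) and sphincter 2 (330.8 ± 13.01 CPM), and lowest in stroma 1 (21.9 CPM). *Lama3*, the alpha chain of the epithelial anchoring laminin, was highest in EC (312 ± 34.9 CPM) and stroma 1 (299 ± 40.5 CPM), whose ranges overlapped, and its level in stroma 2 was 25.3 CPM. *Lama4*, the main alpha chain of vessel walls, was highest in EC (202 ± 78.3 CPM), then stroma 2 (115 CPM) and stroma 1 (112 CPM), and stood between 0.694 and 5.22 CPM in dilator muscle, sphincter 2, iris PE, CBE, CB and leukocytes. *Lama5*, a chain found in most adult basement membranes, was highest in sphincter 1 (129.6 ± 21.6 CPM) and sphincter 2 (115 ± 29.7 CPM), which overlapped, and was at 10.9 CPM in CB. *Lama1* did not exceed 20.5 CPM in any cell type.

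Among the partner chains, *Lamb1* was near 218 CPM in CB and 217 CPM in stroma 2, followed by iris PE (168 ± 38.4 CPM) and dilator muscle (154 ± 12.2 CPM), but sphincter 2 (31.9 CPM), sphincter 1 (17.9 CPM) and stroma 1 (8.96 CPM) were low. *Lamb2*, the alternative beta chain, varied less, from 2.06 CPM in leukocytes to 40.6 CPM in EC. *Lamc1*, the gamma chain shared by most laminins, was present in all 10 cell types, from 31.1 CPM in leukocytes to 150.1 ± 24.8 CPM in stroma 2. *Lamc3* was highest in stroma 2 (38.5 ± 5.54 CPM) and its next level was 9.97 CPM in EC. *Lamb3*, a partner of *Lama3* in the epithelial laminin, did not exceed 10.3 CPM in any cell type.

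Levels were also taken per kilobase of annotated gene span. By this measure *Lamb2* was the highest beta chain in sphincter 1 (2.22), sphincter 2 (2.93), stroma 1 (1.84) and EC (3.76 CPM per kilobase). *Lamb1* was the highest beta chain in dilator muscle (2.39 CPM per kilobase), stroma 2 (3.37 CPM per kilobase), iris PE (2.61 CPM per kilobase) and CB (3.38 CPM per kilobase). These orders were the same per kilobase of exon, while in CBE the highest beta chain depended on the length used. The order of the alpha chains depended on the length used in most cell types, because the *Lama2* gene spans 640 kb and the *Lama5* gene 49.5 kb. *Lama2* in stroma 2 and CB, *Lama3* in stroma 1 and *Lama5* in CBE ranked first by both.

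The nidogens marked different clusters. *Nid1* reached 483 ± 190.2 CPM in stroma 2, which is 20.1 times the mean of the other 9 cell types, and its next level was 67.5 ± 20.1 CPM in EC. *Nid2* was highest in CB (145 ± 47.6 CPM) and CBE (134 ± 24.5 CPM), which overlapped, then in dilator muscle (73.0 CPM) and stroma 2 (54.8 CPM), and was lowest in stroma 1 (6.61 CPM).

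**Figure D1:**
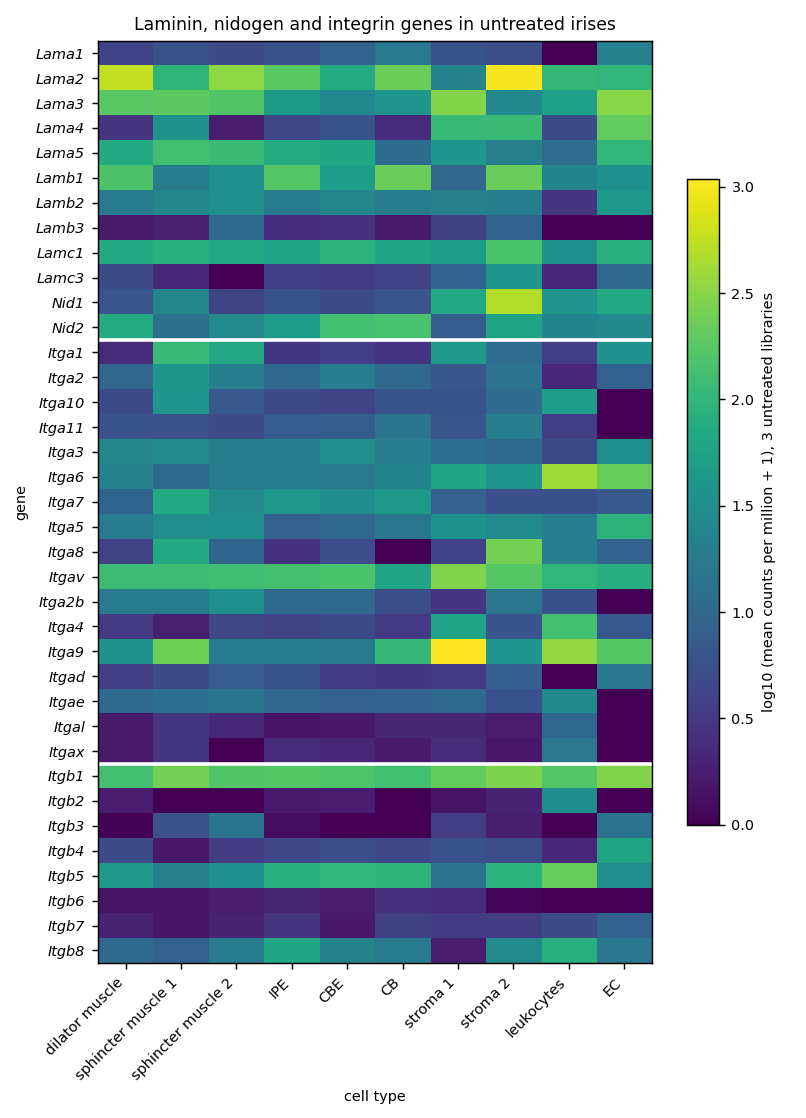
Mean level of the laminin, nidogen and integrin genes reported here (rows) in each cell type (columns) of untreated irises, as log10 of CPM plus 1 over 3 libraries. White lines separate laminins and nidogens, integrin alpha and integrin beta subunits. *Itga9* in stroma 1 (1087 CPM) and *Lama2* in stroma 2 (1022 CPM) are the brightest cells, and *Itgb1* and *Itgav* form bands across all 10 cell types.

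Integrin beta 1, the partner of most alpha subunits, was expressed throughout. *Itgb1* ranged from 129.6 CPM in CB to 292 ± 38.3 CPM in EC and 278 ± 43.8 CPM in stroma 2. *Itgav*, the alpha subunit of the RGD-binding receptors that also activate latent TGF-beta, ranged from 57.8 CPM in CB to 292 ± 10.9 CPM in stroma 1. Its partner *Itgb8* was highest in leukocytes (81.4 ± 72.9 CPM, from 22 UMIs) and iris PE (63.3 ± 6.37 CPM), and was at 0.693 CPM in stroma 1. *Itgb5*, another partner, was highest in leukocytes (215 ± 46.5 CPM) and lowest in stroma 1 (12.8 CPM). *Itgb3* had 50 UMIs and *Itgb6* 32 UMIs over all untreated nuclei.

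Single alpha subunits stood out in single clusters. *Itga9*, a receptor subunit for tenascin and VCAM-1, was at 1087 ± 144 CPM in stroma 1, 10.0 times the mean of the other 9 cell types, and *Itga8*, a nephronectin receptor subunit, was at 249 ± 103 CPM in stroma 2, 19.3 times that mean. Both were highest in these clusters in 8 of 8 libraries against the next cell type. Sphincter 1 was second for *Itga8* (69.3 ± 33.2 CPM), and leukocytes were second for *Itga9* (351 ± 127 CPM). Markers of stroma 1 (*Sox10*, *Pax3*, *Mitf* and *Dct*) summed to 1163 to 2814 CPM in untreated leukocyte nuclei and to 24556 to 26329 CPM in stroma 1. They also summed to 7621 to 8542 CPM in iris PE, and their part in the leukocyte level was not tested.

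Of the collagen-binding alpha subunits, *Itga1* was highest in sphincter 1 (114 ± 23.3 CPM) and sphincter 2 (67.2 ± 3.34 CPM) and was at 1.37 CPM in dilator muscle. *Itga2* (39.8 ± 7.54 CPM) was also highest in sphincter 1, although its range overlapped with that of CBE, where untreated replicate 1 was at 42.7 CPM and the other 2 at 7.56 and 6.24 CPM, and *Itga10* stood at 38.9 ± 13.2 CPM there, second to a leukocyte level that rests on 7 UMIs. *Itga11* was highest in stroma 2 (18.6 ± 3.75 CPM). The 2 sphincter clusters thus carried more *Itga1* than the dilator in each of 8 libraries.

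Of the laminin-binding alpha subunits, *Itga7*, the subunit of muscle, was highest in sphincter 1 (69.2 ± 11.6 CPM), with 41.7 ± 8.72 CPM in CB and 40.9 CPM in iris PE, and it was at 8.45 CPM in dilator muscle. *Itga6* was highest in leukocytes (402 ± 69.7 CPM) and EC (216 ± 73.3 CPM). Leukocytes were above EC for *Itga6* in 3 of 8 libraries, which were the untreated ones. *Itgb4*, the partner of *Itga6* in hemidesmosomes, was at 57.6 ± 42.4 CPM in EC and between 0.602 and 4.82 CPM elsewhere. *Itga3* ranged from 3.79 to 31.5 CPM and was highest among CBE integrins relative to the other cell types (30.8 ± 9.42 CPM, 1.68 times their mean).

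*Itga5*, the fibronectin receptor subunit, was highest in EC (89.7 ± 40.9 CPM) and lowest in iris PE (7.47 CPM), with 16.8 ± 0.388 CPM in dilator muscle and 31.6 ± 20.9 CPM in sphincter 2. *Itga2b*, known from platelets, was highest in sphincter 2 (31.5 ± 4.99 CPM, from 37 UMIs). Leukocytes were highest for *Itga4* (129 ± 69.8 CPM), the VCAM-1 receptor subunit, with stroma 1 second (55.1 ± 26.9 CPM). They were also highest for *Itgb2*, the common beta subunit of leukocyte integrins, at 29.4 ± 4.25 CPM from 13 UMIs, where no other cell type exceeded 1.01 CPM. *Itgal*, *Itgax*, *Itgb2*, *Itgb3*, *Itgb6* and *Itgb7* each had fewer than 100 UMIs over all untreated nuclei.

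For 17 of the 38 members, the highest cell type did not overlap with the second over the 3 untreated libraries, as was the case for 19.3% of all 22828 genes with a UMI in these libraries. EC were highest for 10 members and leukocytes for 9, the clusters with the fewest nuclei, and stroma 2 for 6. Neither dilator muscle nor iris PE was highest for any. In dilator muscle, the member that stood out most against the other cell types was *Lama2* (2.40 times their mean), and among integrins *Itga2b* (16.4 ± 4.11 CPM, 1.61 times their mean). In leukocytes *Nid1*, which had the largest ratio among laminin and nidogen genes with at least 20 UMIs there, was at 0.501 times the mean of the other cell types, from 21 UMIs.

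In dilator muscle, 5 integrin genes rose and 1 laminin chain fell with dilation. A gene was called when its log2 fold change exceeded 0.6 in size with an adjusted p (edgeR, quasi-likelihood) under 0.05. By this rule, 6 of the 31 members tested in dilator muscle were called, against 13.3% of all 15395 genes tested there. *Itga5*, *Itgb1*, *Itgb8*, *Itga7* and *Itga11* rose (7.2% of all genes were called higher) and *Lamb1* fell (6.14% were called lower). Outside the dilator, members were called in sphincter 1 (2 of 16, with 1.95% of all genes), sphincter 2 (2 of 17, 2.87%), stroma 1 (1 of 14, 1.17%), stroma 2 (1 of 30, 1.73%) and leukocytes (1 of 8, 1.32%). No member was called in iris PE (0 of 29, 0.595%), CBE (0 of 14, 0.0122%), CB (0 of 14, 0.0665%) or EC (0 of 5, 0%), where 2, 1, 0 and 0 members had an unadjusted p under 0.05 and DESeq2 also called none. Together these were 13 calls in 178 tests, 10 higher and 3 lower, where 3.34% of all gene and cell type pairs were called. With a term for the series of library numbers there were 21 calls, 12 of them among these 13.

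*Itga5* in dilator muscle was at 16.8, 16.5 and 17.2 CPM in the untreated libraries, at 21.9, 19.9 and 23.0 CPM in the constricted libraries and at 39.3 and 44.1 CPM in the dilated libraries. Both dilated libraries stood above the other 6. The log2 fold change was 1.48 ± 0.18 (SE, adjusted p = 0.000195). *Itgb1*, with which it forms the fibronectin receptor, was at 141, 123 and 139 CPM untreated, 132, 176 and 189 CPM constricted and 245 and 369.9 CPM dilated. Again the dilated libraries stood above all others, and they were farther from each other than any untreated pair. The log2 fold change of *Itgb1* was 1.41 ± 0.22 (adjusted p = 0.00103).

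*Itgb8* was at 6.23, 11.5 and 11.9 CPM untreated, 13.9, 23.9 and 14.9 CPM constricted and 26.8 and 25.4 CPM dilated. The dilated libraries were the highest, and the constricted libraries were all above the untreated ones. Its log2 fold change with dilation was 1.47 ± 0.28 (adjusted p = 0.00384), and with constriction 0.69 ± 0.27 (adjusted p = 1.00). *Itga7* was at 8.10, 7.74 and 9.49 CPM untreated, 9.10, 9.75 and 7.34 CPM constricted and 15.8 and 18.6 CPM dilated, with both dilated libraries above all others. Its log2 fold change was 1.19 ± 0.24 (adjusted p = 0.00601), which did not pass without dilated replicate 2 (adjusted p = 0.0700). *Itga11*, a collagen receptor subunit, was at 6.23, 3.66 and 5.06 CPM untreated, 7.36, 4.43 and 4.97 CPM constricted and 10.4 and 8.82 CPM dilated. Both dilated libraries stood above all others, from 10 to 105 UMIs per library. The log2 fold change was 1.20 ± 0.31 (adjusted p = 0.0206), which did not pass with 1 of the dilated libraries or untreated replicate 2 or 3 left out.

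*Lamb1* was the only laminin chain called in dilator muscle. It was at 140.3, 164 and 158 CPM untreated, 164, 161 and 155 CPM constricted and 60.4 and 79.1 CPM dilated. Untreated and constricted libraries were alike and both dilated libraries were lower. The log2 fold change was -0.96 ± 0.18 (adjusted p = 0.00365).

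**Figure D2:**
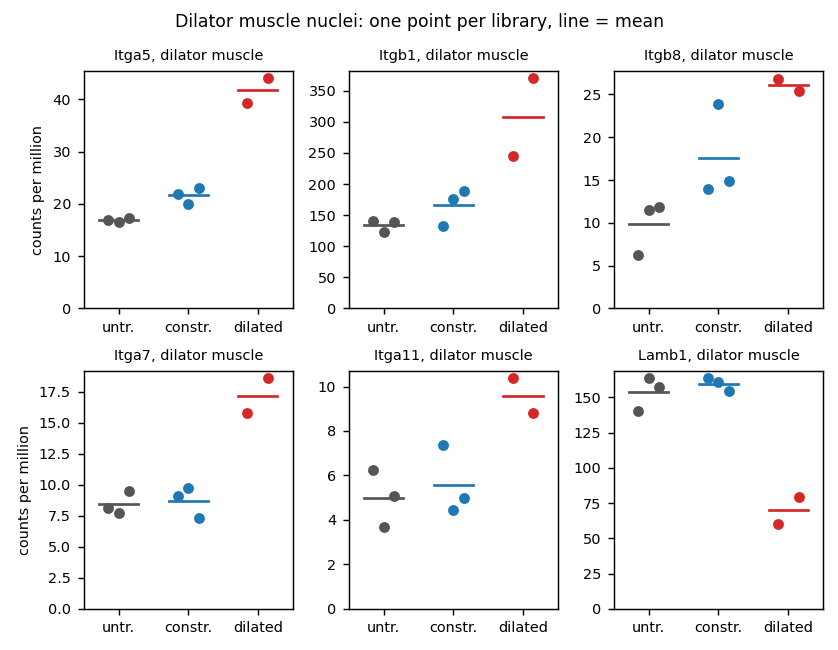
CPM of the 6 called members in dilator muscle nuclei, with 1 point per library (3 untreated, 3 constricted, 2 dilated) and the mean of each group as a line, on axes from 0. The dilated points lie above all others for *Itga5*, *Itgb1*, *Itgb8*, *Itga7* and *Itga11* and below all others for *Lamb1*.

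The fold changes are relative to TMM scaling, a trimmed mean over genes that set the median of all genes in dilator muscle at 0.02. Scaled by library totals instead, that median was -0.16, and 726 of 2258 called genes were higher, against 1109 of 2054 with TMM. Of the members, *Itga5*, *Itgb1*, *Itgb8*, *Itga7* and *Lamb1* kept their calls with library totals and *Itga11* did not. *Lama2*, with a mean of 574 CPM untreated and 356 CPM dilated, had a log2 fold change of -0.50 ± 0.16 (adjusted p = 0.0599) with TMM and passed both limits with library totals (-0.69). *Itgav* (0.58 ± 0.15, adjusted p = 0.0210) and *Lamc1* (0.52 ± 0.15, adjusted p = 0.0323) passed the limit on p but not that on the fold change. None of *Lama3*, *Lama5*, *Lamb2*, *Nid1* and *Nid2* was called, with log2 fold changes of 0.44, 0.20, 0.23, 0.59 and -0.11. The median over the 31 tested members was 0.24, and 21 of them had a positive value. The markers of the dilator cluster (*Adra1a*, *Nos1* and others, 4 of 4 detected) summed to 3177 to 3360 CPM untreated and 1998 to 2450 CPM dilated. Those of stroma 1 (4 of 4) summed to 6064 to 6599 and 8245 to 8609 CPM in the same nuclei. The stroma 1 list was also high in iris PE, at 7621 to 8542 and 9980 to 11778 CPM, so it does not mark stroma 1 nuclei alone. The part of these markers in these results was not tested.

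Transcripts of both subunits of the fibronectin receptor also rose in sphincter 2. *Itga5* was there at 55.0, 14.6 and 25.2 CPM untreated, 35.7, 28.9 and 54.9 CPM constricted and 167 and 181 CPM dilated. The dilated libraries lay far above the other 6, and the log2 fold change was 2.90 ± 0.35 (adjusted p = 2.21e-06). *Itgb1* was at 174, 142 and 166 CPM untreated, 249.97, 259.8 and 274 CPM constricted and 296 and 303 CPM dilated. The constricted libraries also stood above the untreated ones, and the dilated libraries were above both. Its log2 fold change was 1.00 ± 0.22 with dilation (adjusted p = 0.00802) and 0.75 ± 0.21 with constriction (adjusted p = 0.219). The *Itgb1* call with dilation was lost without dilated replicate 2 or untreated replicate 2 or 3 (adjusted p up to 0.141).

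In sphincter 1, 2 of the 16 tested members were called, both lower. *Itga10*, a collagen receptor subunit, was at 53.8, 28.7 and 34.3 CPM untreated, 59.2, 60.5 and 46.4 CPM constricted and 8.18 and 2.31 CPM dilated. The dilated values rest on 3 and 1 UMIs, against 10 to 38 UMIs in the other libraries. The log2 fold change was -2.71 ± 0.59 (adjusted p = 0.0146), and it did not pass without dilated replicate 2 or untreated replicate 3 (DESeq2 gave no adjusted p). *Lama3* was at 209.7, 171 and 199 CPM untreated, 247, 248 and 163 CPM constricted and 117 and 60.0 CPM dilated. The dilated libraries were lowest, and the log2 fold change was -1.10 ± 0.28 (adjusted p = 0.0374), which did not pass by DESeq2, without dilated replicate 2, or without any 1 of the untreated libraries (adjusted p up to 0.577). *Itga2*, *Itga7* and *Itga9* did not pass the test there, with log2 fold changes of -1.67, -0.84 and -0.79 (adjusted p = 0.0711, 0.284 and 0.146). The iris PE markers (4 of 4 detected) summed to 1387 to 1764 CPM in untreated, 1029 to 1767 CPM in constricted and 2358 to 2512 CPM in dilated sphincter 1 nuclei. Between untreated and dilated nuclei *Pax6* went from 1258 to 2025 CPM, *Zic1* from 62.9 to 133 CPM, *Otx1* from 178 to 162 CPM and *Tyrp1* from 136 to 115 CPM, and their part in these results was not tested.

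In the stroma and in leukocytes, 3 integrin subunits rose. *Itga4* in stroma 1 was at 86.1, 41.7 and 37.6 CPM untreated, 78.9, 74.9 and 65.5 CPM constricted and 160.0 and 110.0 CPM dilated, with both dilated libraries above all others. Its log2 fold change was 1.44 ± 0.26 (adjusted p = 0.00925), lost without dilated replicate 1 or untreated replicate 2 or 3. *Itga7* in stroma 2 was at 3.63, 4.69 and 5.09 CPM untreated, 10.1, 3.23 and 1.97 CPM constricted and 23.7 and 18.1 CPM dilated. All constricted and untreated libraries stayed below both dilated libraries. Its log2 fold change was 2.18 ± 0.44 (adjusted p = 0.0273), lost without dilated replicate 1 or any 1 of the untreated libraries (adjusted p up to 0.158). *Itgb5* in leukocytes was at 166, 258 and 223 CPM untreated, 377, 251 and 271 CPM constricted and 581 and 502 CPM dilated. For *Itgb5* too, both dilated libraries were above all others, with a log2 fold change of 1.27 ± 0.31 (adjusted p = 0.0436). The call was lost in 11 of 17 alternatives, among them without doublets and without shared barcodes.

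In stroma 2, 9 of 30 tested members had an unadjusted p under 0.05, against 11.7% of all genes tested there. Those not called included *Lama5* (20.0 ± 6.14 CPM untreated, 56.3 ± 12.7 CPM dilated, log2 fold change 1.62 ± 0.43, adjusted p = 0.0908) and *Lamb1* (217 ± 20.2 and 122 ± 12.9 CPM, -0.78 ± 0.18, adjusted p = 0.0563). DESeq2 called both. The endothelial markers *Cldn5* and *Erg* averaged 112 and 5.93 CPM in untreated and 502 and 40.9 CPM in dilated stroma 2 nuclei, while the defining markers *Pecam1* (26.7 and 28.5 CPM) and *Cdh5* (0.602 and 0.809 CPM) were at low levels in both. The leukocyte markers (*Ptprc*, *Csf1r*, *Mrc1* and *Cd74*) summed in leukocytes to 3903 to 4951 CPM untreated and 2655 to 3035 CPM dilated. Of these, *Mrc1* alone averaged 2543 CPM untreated and 1102 CPM dilated. Their part in these results was not tested.

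**Figure D3:**
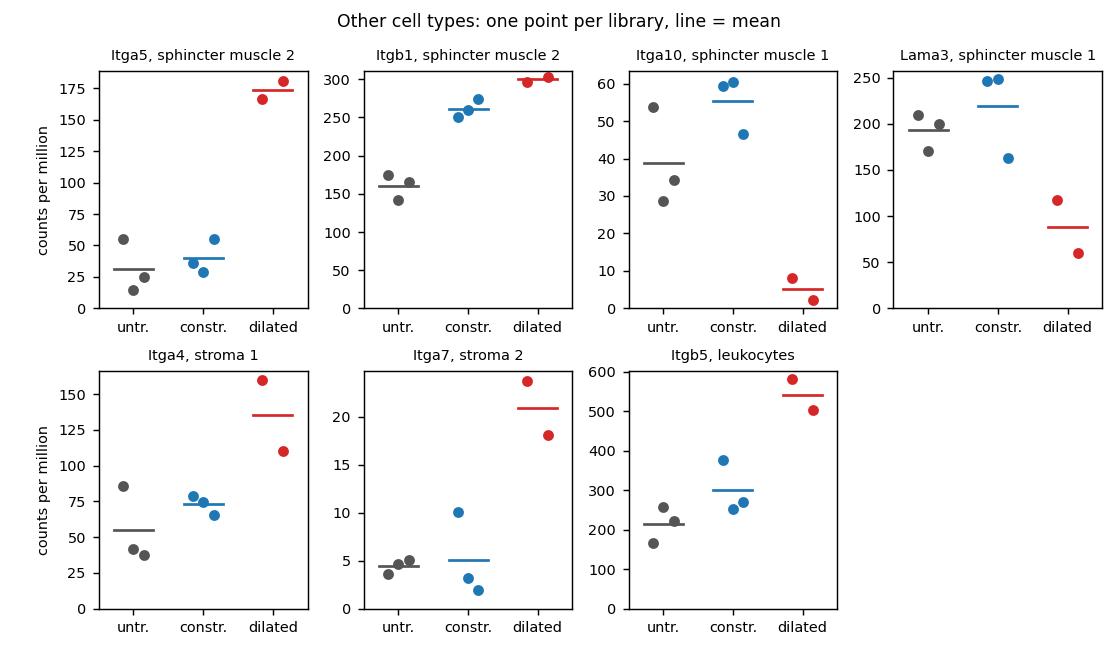
CPM of the 7 calls outside dilator muscle, with 1 point per library and the mean of each group as a line, on axes from 0. The dilated points do not overlap with the untreated or constricted ones in any panel, and *Itgb1* in sphincter 2 is also higher in the constricted libraries (249.97 to 274 CPM) than in the untreated ones (142 to 174 CPM).

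Whether a dilation effect differed between dilator muscle and another cell type was tested in joint fits with a term for each library. Against iris PE, 7 of 33 members differed, where 12.2% of all genes did. The effect on *Itgb1* was larger in dilator muscle by 1.12 ± 0.13 (log2, adjusted p = 2.71e-06), that on *Itgb8* by 1.68 ± 0.19 and that on *Itga7* by 1.16 ± 0.22. *Lama2* differed by -1.04 ± 0.12, with log2 fold changes of -0.50 in dilator muscle and 0.51 in iris PE. Against sphincter 1, 7 of 27 members differed (6.71% of all genes), all with a higher value in dilator muscle, and *Itga7* by 2.01 ± 0.39 and *Lama3* by 1.52 ± 0.24. Against sphincter 2, 2 of 27 differed (2.1% of all genes), and *Itga5* rose more in sphincter 2 (dilator minus sphincter 2 -1.47 ± 0.35, adjusted p = 0.00285). The other was *Itgb8* (3.80 ± 0.83), which was too low in sphincter 2 to be tested there alone, with 26 UMIs untreated. It entered the joint fit through its level in dilator muscle, so its difference rests on a value near the floor. Against stroma 1, 2 of 28 differed (5.73% of all genes), *Itgb1* by 0.91 ± 0.17 and *Itga5* by 1.00 ± 0.31. Against stroma 2, 6 of 33 differed (8.13% of all genes), among them *Itga11* by 1.37 ± 0.36 and *Lama5* by -1.51 ± 0.34.

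**Figure D4:**
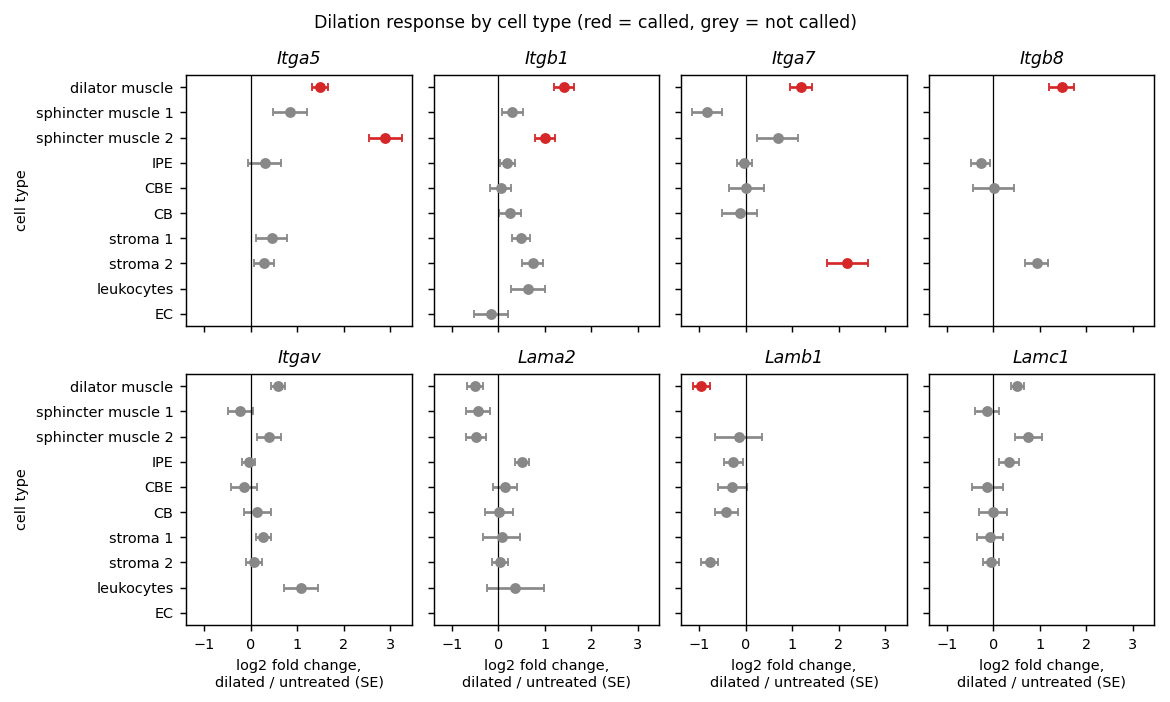
Log2 fold change, dilated against untreated, with its SE (bars) for 8 members in each cell type where they were tested. Red marks values past both limits and grey the others, and *Itga5* is red in dilator muscle (1.48) and sphincter 2 (2.90) only, while *Lamb1* is red in dilator muscle (-0.96).

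With constriction, 0 of 178 tests of members passed by edgeR and 0 by DESeq2, where 0.0118% of all gene and cell type pairs were called. Of these tests 19 had an unadjusted p under 0.05 (10.7%, against 5.25% of all tests). *Lama2* in CBE, at 71.9 ± 1.63 CPM untreated and 151 CPM constricted, had a log2 fold change of 1.13 ± 0.24 (adjusted p = 0.107), and *Itga1* in sphincter 1, at 114 ± 23.3 CPM untreated and 233 CPM constricted, one of 1.04 ± 0.27 (adjusted p = 0.233). *Itga7* in sphincter 1 was at 69.2 CPM untreated, 126 CPM constricted and 36.6 CPM dilated, with log2 fold changes of 0.90 ± 0.25 (adjusted p = 0.302) and -0.84 ± 0.33. Both comparisons share the untreated libraries.

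The partners of these genes were read from 4 lists of 80 other genes in all. Of 17 tested basement membrane partners, 3 rose and 5 fell in dilator muscle, where 7.2% of all genes were called higher and 6.14% lower. *Col4a1* and *Col4a2*, the common type IV collagen chains, rose by 3.68 ± 0.21 and 2.73 ± 0.27 (log2, adjusted p = 9.13e-07 and 5.42e-05), and *Ntn4*, a laminin-binding netrin, by 1.46 ± 0.26. *Ntn4* was at 12.5 to 26.2 CPM untreated, 23.6 to 35.0 CPM constricted and 35.7 and 43.5 CPM dilated. *Col4a5*, *Col4a6*, the peroxidasin gene *Pxdn*, *Fras1* and *Frem2* fell. *Col4a1* and *Col4a2* also rose in sphincter 2, by 1.59 ± 0.44 and 1.60 ± 0.35, and *Col4a3*, *Col4a4* and *Ntn4* in stroma 2. For *Col4a2* in sphincter 2, the constricted (54.9 to 136 CPM) and dilated libraries (85.2 and 159 CPM) overlapped. So did those for *Ntn4* in stroma 2 (19.7 to 38.7 CPM constricted, 73.8 and 26.3 CPM dilated). *Sparc* rose in sphincter 1 and stroma 1, while *Col4a6* fell in sphincter 1, *Col4a5* in stroma 1 and *Smoc2* in iris PE.

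Of 11 tested integrin ligands outside the laminins, 3 rose and 1 fell in dilator muscle, where 7.2% of all genes were called higher and 6.14% lower. *Thbs1* (thrombospondin-1) rose by 5.80 ± 0.54, *Tnc* (tenascin-C, a ligand of integrin alpha 9) by 3.97 ± 0.48 and *Mfge8* (an RGD protein bound by alpha v integrins) by 2.03 ± 0.20, and *Npnt* (nephronectin) fell. *Fn1*, the fibronectin gene, was called higher in sphincter 1 by 1.44 ± 0.38 (adjusted p = 0.0487), and *Tnc* rose in sphincter 2 by 2.86 ± 0.54. For *Fn1* the untreated (20.8 to 86.0 CPM) and dilated libraries (115 and 78.5 CPM) overlapped. In stroma 2, *Thbs1* rose by 4.55 ± 0.33 and *Postn* fell (-1.02 ± 0.21), and in iris PE *Vcam1* rose by 1.11 ± 0.18. Of 14 tested laminin receptors other than integrins, *Sdc1* and *Sdc4* (syndecans) rose in dilator muscle by 1.13 and 1.07, and *Sspn* (sarcospan) fell. Constricted and dilated libraries overlapped there for both syndecans, and *Sdc4* also rose in stroma 2, by 1.43. Of 27 tested genes of the adhesion complex, 6 rose and 4 fell in dilator muscle. The shares of all genes beside the receptor and adhesion counts are the same 7.2% and 6.14%. *Vcl* (vinculin) rose by 1.45 ± 0.17, *Actn1* (an alpha-actinin) by 1.33 ± 0.14, *Zyx* (zyxin) by 1.34 ± 0.22 and *Ilk* (integrin-linked kinase) by 0.99 ± 0.16. *Tln2* (a talin), *Parvb* (a parvin), *Lims2* and *Bcar1* fell. *Ilk* was at 48.7 to 68.6 CPM untreated, and its constricted (84.8 to 102 CPM) and dilated libraries (86.8 and 109 CPM) overlapped. *Actn4* and *Tgfb1i1*, also called higher, overlapped likewise. *Vcl* was at 266 to 367 CPM constricted, between untreated (197 to 232 CPM) and dilated (459 and 545 CPM). In stroma 2, *Actn1*, *Actn4* and *Nedd9* rose and *Tln2* fell. *Actn1* also rose in sphincter 2, and *Lims1* fell in sphincter 1. Over the partner, ligand, receptor and adhesion lists, in this order, the median log2 fold changes in dilator muscle were -0.00013, 0.02, -0.03 and 0.10, against 0.02 over all genes. Scaled by library totals, the adhesion complex had 4 genes higher and 6 lower in dilator muscle, and the counts of the other lists there did not move. With that scaling *Fn1* in sphincter 1 (adjusted p = 0.0632) and *Col4a1* in sphincter 2 (adjusted p = 0.0599) did not pass, and 2 of the 3 basement membrane partners called in stroma 2 did. No gene of these lists was called with constriction in dilator muscle, where 1 of all 15395 genes tested was called.

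**Figure D5:**
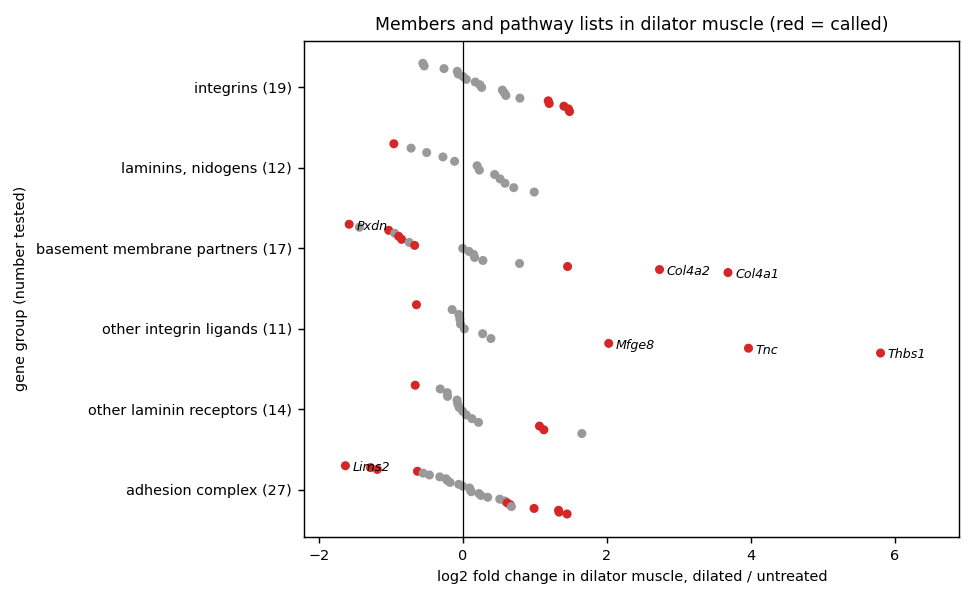
Log2 fold change in dilator muscle, dilated against untreated, of the tested members (integrins, laminins and nidogens) and of 4 lists of related genes, with 1 point per gene and red for genes past both limits. Integrins reach 1.48, while *Thbs1* (5.80), *Tnc* (3.97) and *Col4a1* (3.68) lie farthest to the right.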

How the data were processed

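The authors purified nuclei, made 10x Genomics libraries in 5 batches, sequenced them in 2 runs, and counted unique molecular identifiers on exons and introns of mm10 with Cell Ranger 3.1.0. They removed nuclei over 1% mitochondrial transcripts or outside 500 to 6000 transcripts (the deposited nuclei hold 500 to 5956 detected genes), and assigned cell types after clustering in Seurat. Which library belongs to which batch is not given in the sources used here. The deposited matrices hold whole-number counts of UMIs per gene and nucleus, without normalization. The deposited percent of mitochondrial transcripts and UMI totals per nucleus were used as checks only.

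Counts were summed here per cell type and library, since nuclei of a library are not replicates. The main test was edgeR 4.0.16 (R 4.3.3): TMM normalization, filterByExpr, and the two-sided quasi-likelihood test of glmQLFit and glmQLFTest. Each cell type had 1 fit over all 8 libraries, with Benjamini-Hochberg adjustment over all genes tested. Calls needed a log2 fold change over 0.6 in size with adjusted p under 0.05. Standard errors came from the fold change and its F value. Differences between cell types in the dilation effect came from joint fits with a term per library. DESeq2 1.42.0, RLE normalization, no filter, only 2 conditions, a replicate block, a term for the series of library numbers, and leaving out each library or the doublets called by Scrublet (scanpy 1.11.5) were alternatives. Leaving out shared barcodes and scaling by library totals were added after the data had been seen. The scripts were tested on simulated data. There, 2-fold changes were called for 35% of changed genes in dilator muscle, 27% in stroma 2 and 42% in sphincter 1. For 4-fold changes these shares were 82%, 92% and 88%, and 7, 17 and 7 unchanged genes were called. Each library is a separate pool of irises, so p-values cover the spread between pools.

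The members and gene lists were chosen with earlier results of these data known. Values are given in full for every called member and, per cell type, for the integrin and the laminin or nidogen gene with the highest ratio of untreated level to the mean of the other 9 cell types among those with at least 20 UMIs. The values of 1 member are not reported here. No p-value is given between cell types, whose clusters were defined from the same counts. Positions and gene lengths were read from GENCODE vM21, and promoters from RefSeq. *Pelo* lies within *Itga1* on the same strand, and *Cerkl*, *Mettl7b*, *Haspin* and others overlap *Itga4*, *Itga7* and *Itgae* on the other strand, so reads there may be shared or lost. Tables and figures were made in Python 3.11.15 (numpy 2.4.6, pandas 2.3.3, scipy 1.17.1 and matplotlib 3.10.9).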

Additional observations from a re-analysis of the deposited data

Results flagged for a closer look

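The dilation effect differed between dilator muscle and another cell type for 24 pairs of a member and a cell type in the joint fits (adjusted p under 0.05, edgeR). All differences are log2, dilator muscle minus the other cell type. Against sphincter 1 they were 3.34 for *Itga10*, 2.01 for *Itga7*, 1.96 for *Itga2*, 1.52 for *Lama3*, 1.11 for *Itgb1*, 1.00 for *Itga9* and 0.80 for *Itgav*. Against sphincter 2 they were 3.80 for *Itgb8*, which was too low in sphincter 2 to be tested there alone, and -1.47 for *Itga5*. Against iris PE they were 1.68 for *Itgb8*, 1.16 for *Itga7*, 1.12 for *Itgb1*, 1.05 for *Itga5*, 0.58 for *Itgav*, -0.73 for *Lamb1* and -1.04 for *Lama2*. Against stroma 1 they were 1.00 for *Itga5* and 0.91 for *Itgb1*. Against stroma 2 they were 1.37 for *Itga11*, 1.15 for *Itga5*, 0.64 for *Itgb1*, 0.53 for *Lamc1*, -0.56 for *Lama2* and -1.51 for *Lama5*. Groups of 2 or 3 libraries were not examined for single outlying libraries.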

How the results depend on the processing

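Under the alternatives the number of calls of a member in a cell type with dilation (13, of 10 members) became 21 without a filter on low counts and 21 with the series of library numbers as a term (12 of the 13 were shared with each), and 12 or 16 at the outermost under the other settings that keep all libraries, among them DESeq2 (13, with 11 shared). Leaving out 1 library gave 7 to 15 calls, with 7 without dilated replicate 2, untreated replicate 2 or untreated replicate 3. *Itga5*, *Itgb1*, *Itgb8* and *Lamb1* in dilator muscle and *Itga5* in sphincter 2 were called under all 17 alternatives, *Itga7* in dilator muscle under 16, and no called member changed direction. With constriction (0 calls) there were 3 calls without the filter (*Itga1* in sphincter 1, *Lama2* in CBE and *Itgad* in stroma 2) and 0 to 1 with 1 library left out, where *Lama2* in CBE was called without constricted replicate 1 or without dilated replicate 1. The 24 differences between dilator muscle and other cell types became 14 to 25 with 1 library left out, 14 of them without untreated replicate 3. The causes were not tested. With a replicate block, 15 calls were made with dilation and 1 with constriction (*Lama2* in CBE). The numbers were not taken as pairs, since same-numbered libraries correlated in their deviations from the group means in dilator muscle between -0.033 and 0.426, not all above 0.1. Of pairs of libraries from different groups, the 8 within a series of library numbers correlated at 0.182 to 0.426 and the 13 others at -0.426 to 0.087. These pairs are not independent, since deviations from a group mean offset each other within the group. For the 2 dilated libraries they are equal and opposite, so positive values in 1 series force negative ones across series. The labels do not say what a series shares. With the series as a term, 3138 genes were called in dilator muscle in place of 2054. The highest cell type was the same for 27 to 34 of the 38 members under the alternatives for levels.

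Only 2 libraries were dilated, so that 1 remains when the other is left out and is assumed to vary like the other groups. In leukocytes, EC and the sphincters the member counts are small, and intervals of counting error were not computed for means over libraries. A member that was not called is not shown to be the same between conditions.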

Other observations

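Over all nuclei of a library, *Itga2* was at 22.7 CPM in untreated replicate 1 and between 5.18 and 9.89 CPM in the other 7 libraries. In dilator muscle, *Itga2* was at 19.9 CPM in untreated replicate 1, from 32 UMIs, and at 3.52 and 3.48 CPM in the other untreated libraries. The cause was not tested.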
